A study of Rattus norvegicus with 9 samples.

Results

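Rat cortical neurons that had been through oxygen-glucose deprivation (OGD) were compared with neurons left untreated, by RNA sequencing of 3 libraries per condition. These are 6 of the 9 libraries of the series, and they were chosen by their labels alone. The other 3 libraries are labelled as treated with Wnt3a plus Rspondin1 under OGD and normoxia. They enter here through the shared fit, which set the tested genes, the scaling, the estimate of spread and the principal components. The count of genes with a read and the simulated data also used them. All cells came from the brains of Sprague Dawley rat embryos at embryonic day 19, were dissociated with papain and were grown in Neurobasal-A medium with B27 supplement. The OGD cultures spent 4.5 h at 1% oxygen in a Neurobasal-A medium that lacked both glucose and pyruvate, and then went back to normal oxygen and complete medium. The untreated cultures had neither step, and no mock change of medium is described for them. How long the OGD cultures recovered before RNA was taken, and how old the cultures were, the labels do not say. Nothing in the labels says that the 3 libraries of a condition came from separate embryos or platings, so the p-values measure the spread between these libraries, which may be technical.

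OGD is the standard culture model of ischaemic stroke. Without glucose and oxygen, neurons lose ATP and their membrane gradients, glutamate accumulates and calcium enters, and many cells die during the hours after oxygen returns. Astrocytes and microglia tolerate the same insult better and can respond to it by changing their own transcription. During hypoxia the transcription factor HIF raises glycolytic, angiogenic and pH-regulating genes, and its subunits are degraded again once oxygen returns. In fasting, cells spare glucose through FoxO, PPAR and glucocorticoid receptor targets such as Pdk4, Angptl4 and Cpt1a, which shift fuel use towards fatty acids.

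Levels are given as FPKM, the reads of a gene scaled by transcript length and library total, and values are listed in the order replicate 1, 2 and 3. Changes are log2 values of OGD minus control ± their standard error, from edgeR's quasi-likelihood test on the counts with trimmed-mean scaling, and p-values are Benjamini-Hochberg adjusted over the 13693 tested genes. The words rose and fell are kept for genes with an adjusted p under 0.05, and a gene is called over 2-fold where edgeR's glmTreat also placed its change beyond 2-fold at that threshold. Control libraries held 20100579, 15605802 and 25048521 counts, and OGD libraries 14285914, 22261384 and 15755600. The first principal component, with 84.1% of the variance, set the controls (-95.8 to -92.9) apart from every library that had OGD (38.1 to 53.1). OGD replicate 1 stood apart from its group on the second component, with 4.63% of the variance, at 38.8 against -11.9 and -5.70. Within its group it also had the lowest level of Mt-co1, a mitochondrially encoded transcript: Mt-co1, a subunit of cytochrome oxidase, measured 6358, 11839.6 and 10767 FPKM in the OGD libraries against 7834, 8289 and 10283 in controls. The change of Mt-co1 was 0.046 ± 0.19 and did not pass the test (adjusted p = 0.836).

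Most of the measured transcriptome differed between the conditions. Of 13693 genes tested, 10012 (73.1%) passed, of which 4972 (36.3%) were higher after OGD and 5040 (36.8%) lower. Over 2-fold were 3291 genes (24%), with 1230 higher (8.98%) and 2061 lower (15.1%). The 3 OGD libraries lay wholly above or below the 3 controls, on the scale of normalised CPM, for 10280 genes (75.1%). In bulk RNA, a change in the cells of a type and a change in RNA per cell cannot be told apart. This holds for every group of genes below. Levels are fractions of a library, and changes are relative to its other genes. A transcript of constant amount therefore measures higher where others are lost, and the part of this in the rises below was not tested. The median change of all tested genes was 0.02, and the counts of every gene list below are to be read against these shares and this median.

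Large changes were more often losses. Estimates of at least 4-fold were 319 higher against 1275 lower, and of at least 8-fold 52 against 437. The share called over 2-fold decreased with expression level, from 31.5% of 1396 genes under 1 FPKM to 20.1% of 867 genes at 100 FPKM or more. Genes called over 2-fold lower, a set chosen on this same contrast, made up 21.95 to 22.8% of all counts in controls and 5.42 to 6.55% after OGD. Genes called over 2-fold higher took 4.87 to 5.07% of control counts and 15.1 to 16.6% of OGD counts.

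**Figure D1:**
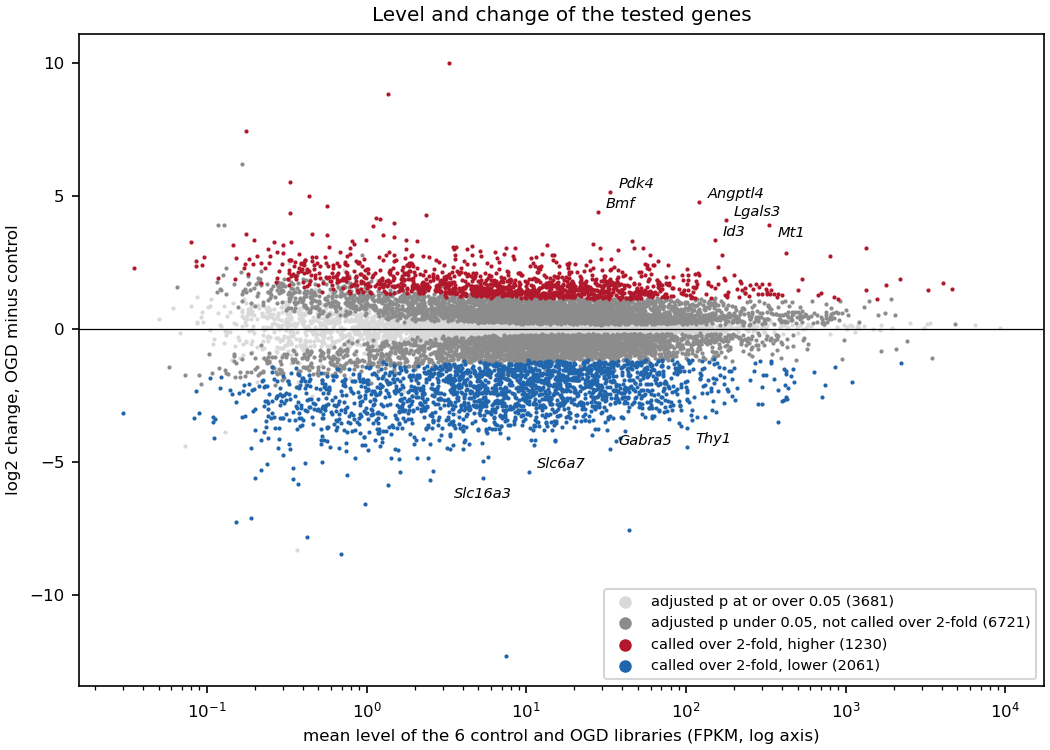
Each point is 1 of the 13693 tested genes, with its mean FPKM over the 6 control and OGD libraries on a log axis and its log2 change, OGD minus control, on the vertical axis. Colours separate 3681 genes that did not pass, 6721 that passed without an over 2-fold call, and the 1230 higher and 2061 lower genes called over 2-fold; blue points reach down over the whole range of levels.

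The 12 largest rises among well expressed genes opened with Pdk4, the kinase that inactivates pyruvate dehydrogenase and so spares glucose carbon. It measured 2.06, 1.55 and 1.55 FPKM in controls and 65.7, 59.1 and 70.2 after OGD, a rise of 5.15 ± 0.18 (adjusted p = 3.42e-10). Angptl4, a secreted inhibitor of lipoprotein lipase, went from 7.77, 6.21 and 10.1 to 234, 214 and 256 FPKM. For this selection a gene needed groups that do not overlap, so that separation is no result. Bmf, a BH3-only protein that opposes the survival members of the BCL2 family, rose by 4.39 ± 0.18, from 2.7, 2.71 and 1.9 to 62.9, 44.9 and 52.6 FPKM.

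Mt1 is described with the metallothioneins, and the other members of the 12 follow. Lgals3, the galactose-binding lectin galectin-3, measured 15.5, 17.6 and 21.8 FPKM in controls and 346, 366 and 295 after OGD. Id3, an inhibitor of basic helix-loop-helix factors, rose by 3.33 ± 0.13, and Cebpd, a transcription factor of the acute phase response, by 3.32 ± 0.14, from 7.43, 8.55 and 7.78 to 88.2, 75.2 and 87.4 FPKM. Itgb4, the beta subunit of the laminin receptor of hemidesmosomes, rose by 3.20 ± 0.12. Capg, an actin-capping protein, rose by 3.11 ± 0.21 and Pmp2, a fatty acid binding protein of myelin, by 3.10 ± 0.26. Rassf4, a member of the RAS association domain family, rose by 3.17 ± 0.13 and Tmem140, a transmembrane protein, by 3.10 ± 0.28.

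The 12 largest falls among well expressed genes were chosen in the same way. Slc6a7, the proline transporter of excitatory terminals, dropped from 22.2, 20.7 and 17.8 to 0.28, 0.53 and 0.65 FPKM, a change of -5.39 ± 0.21. Gabra5, the alpha-5 subunit of extrasynaptic GABA-A receptors, went from 59.3, 63.3 and 68.8 to 2.53, 2.61 and 3.62 FPKM. Lynx1, which damps nicotinic acetylcholine receptors, had 10.4, 11.3 and 11.04 FPKM in controls and 0.58, 0.31 and 0.76 after OGD. The potassium channel gene Kcnk4 fell by 5.32 ± 0.37, its relative Kcnj4 fell by 4.97 ± 0.26, and St8sia5, a sialyltransferase of ganglioside synthesis, fell by 4.30 ± 0.27. Thy1, a surface glycoprotein of mature neurons, was the most abundant of the 12, at 203, 179.8 and 195 FPKM in controls and 8.8, 8.29 and 11.4 after OGD. Of the others, Slc16a3, a lactate exporter, fell by 5.59 ± 0.24, and Postn, the matrix protein periostin, fell by 4.50 ± 0.27. Mas1, a receptor for angiotensin fragments, fell by 4.48 ± 0.26, Usp43, a ubiquitin-specific protease, fell by 4.37 ± 0.18 and Phyhip fell by 4.34 ± 0.43.

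The cultures are labelled as cortical neurons, and the markers showed glia beside neurons already in the controls. The 12 neuron markers summed to 2368 to 2600 FPKM in controls and 389 to 525 after OGD, and all 12 fell over 2-fold with a median change of -2.86. Sums here and below cover every matched marker, also those with too few reads to be tested. The 13 astrocyte markers summed to 3088 to 3250 FPKM in controls and 7995 to 8606 after OGD. Of the 12 that were tested 11 rose, 6 of them over 2-fold, with a median of 1.20; Aldoc, the brain aldolase of astrocytes, did not pass (0.16 ± 0.094, adjusted p = 0.133).

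Excitatory and inhibitory neuron markers were both lower. The 9 tested excitatory markers all fell over 2-fold, with a median of -2.58, while of 15 inhibitory markers 13 fell, 7 of them over 2-fold, with a median of -1.24. The summed inhibitory markers went from 744 to 784 FPKM to 260 to 289, against 634 to 689 and 73.5 to 112 for the excitatory ones. The difference between these medians was not tested. Gad1 and Gad2 make the same product, GABA, and they moved unequally. Gad1 measured 26.97, 25.6 and 25.1 FPKM in controls and 12.8, 13.6 and 14.4 after OGD, a change of -1.14 ± 0.09. Gad2, from a similar control level, went from 19.7, 20.98 and 19.97 to 2.39, 2.52 and 3.23 FPKM, a change of -2.98 ± 0.11.

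Dlx2, a transcription factor of interneuron precursors, did not pass (-0.11 ± 0.14, adjusted p = 0.496). Sst, the peptide somatostatin, fell by 2.63 ± 0.15, from 179, 174 and 168 to 30.3, 23.3 and 36.3 FPKM. Pvalb, the calcium buffer parvalbumin, was the 1 member that rose, from a low level of 1.39, 1.91 and 3.05 to 10.9, 8.11 and 5.91 FPKM (1.85 ± 0.31). The inhibitory list therefore held falls of over 2-fold, small falls and 1 rise.

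Oligodendrocyte lineage genes were divided. Of 12 markers 7 rose and 3 fell, and the sum went from 477 to 570 FPKM to 1278 to 1325. Gpr17, which marks committed precursors that are about to mature, rose by 2.08 ± 0.13. Bcas1, a gene of the same stage, is outside the list and was picked after its value was seen; it rose by 2.35 ± 0.13 and measured 41.1, 51.1 and 55.3 FPKM in controls and 217, 305 and 278 after OGD. Of the surface proteins of proliferating precursors, Pdgfra fell by 0.47 ± 0.081 and Cspg4 fell by 0.64 ± 0.089, and Mog, a late myelin protein, fell by 0.69 ± 0.20. The lineage factor Sox10 rose by 1.53 ± 0.10 and the myelin protein gene Mbp by 0.93 ± 0.11; Mag, which appears late in myelination, did not pass (-0.17 ± 0.16).

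Microglia transcripts were scarce and rose. All 8 tested markers rose, 7 of them over 2-fold, with a median of 2.22. By DESeq2 the over 2-fold call was lost for Cd68 (adjusted p = 0.0762), Aif1 (adjusted p = 0.192) and Tyrobp (adjusted p = 0.0951). The sum of the 12 matched markers went from 4.15 to 6.37 FPKM to 24.0 to 26.6. C1qa, which encodes a chain of complement C1q, had 0.71, 1.59 and 1.33 FPKM in controls and 5.21, 6.13 and 5.69 after OGD. Ptprc, P2ry12, Tmem119 and Trem2 had too few reads to be tested, at no more than 0.36 FPKM in any control or OGD library. Neural progenitor markers summed to 1053 to 1184 FPKM in controls and 4038 to 4609 after OGD, with 8 of 9 tested members higher and 1 lower. The lower member was Hes5, with a change of -1.80 that was called over 2-fold, and Eomes had too few reads to be tested. Vim, the intermediate filament vimentin of immature and reactive glia, rose by 2.73 ± 0.11, from 189, 214 and 189 to 1541, 1403 and 1226 FPKM. Mural cell and fibroblast markers summed to 94.1 to 117 FPKM in controls and 674 to 887 after OGD, nearly all of it from the smooth muscle gene Tagln (99.4, 106 and 84.9 and 863, 730.4 and 653 FPKM). The list held 4 rises and 3 falls, and its median ranged from -0.127 to 1.21 over the alternatives in the closing section.

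**Figure D2:**
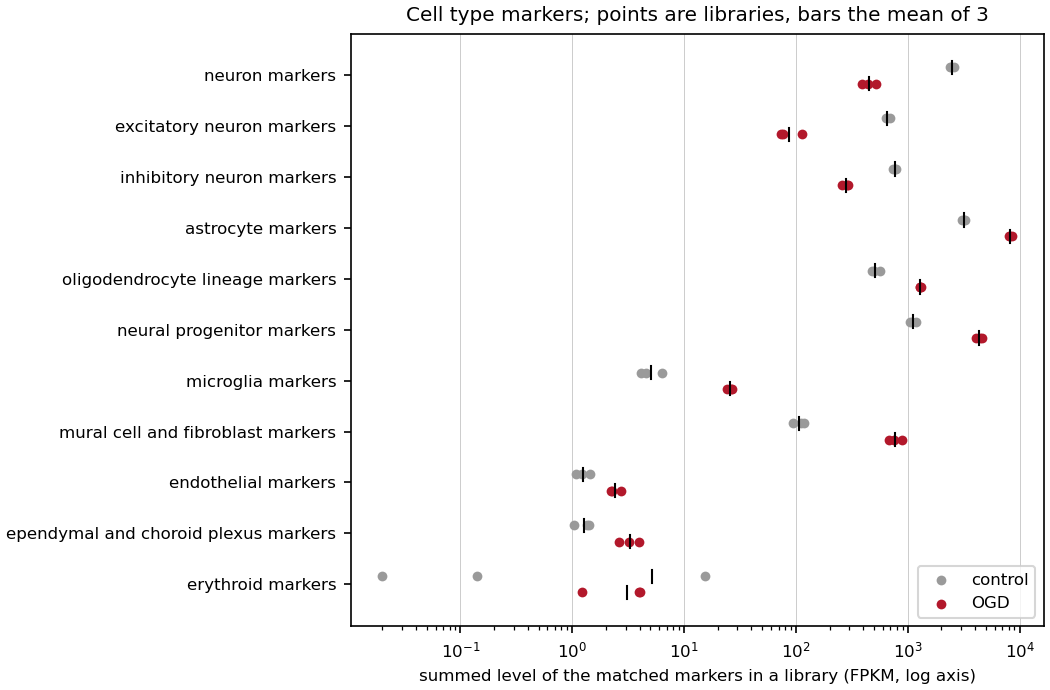
Summed FPKM of each marker list in every library, on a log axis; points are single libraries and black bars the mean of 3. Neuron, excitatory and inhibitory sums are lower in every OGD library, sums of astrocyte, oligodendrocyte, progenitor and microglia markers are higher, and the erythroid sum is carried by control replicate 2.

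Calcium handling was the neuronal group with the lowest median of those listed. Of 18 genes, 17 fell, 14 over 2-fold, with a median of -2.90. Of the kinase subunits of synapses, Camk2a fell by 3.76 ± 0.17 and Camk2b fell by 3.05 ± 0.14. Camk2g, the subunit expressed widely outside neurons too, measured 59.7, 62.8 and 57.4 FPKM in controls and 58.6, 56.2 and 54.1 after OGD. Its change was 0.014 ± 0.072 (adjusted p = 0.872; 95% interval -0.14 to 0.17), and it was the 1 member that did not pass. Members of this kinase family thus ranged from the large fall of Camk2a to no detected change.

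The axon initial segment and nodes of Ranvier, where action potentials start and are renewed, had mostly lower transcripts: 11 of 12 genes fell, 9 over 2-fold, with a median of -2.18. Scn2a, a sodium channel of the segment, fell by 3.28 ± 0.29. Nfasc, the adhesion molecule neurofascin that neurons and oligodendrocytes both make, rose by 0.30 ± 0.099 (adjusted p = 0.0144), and it no longer passed when control replicate 3 was left out (adjusted p = 0.0521). Growth cone and young neuron genes fell in 17 of 18 cases, 11 over 2-fold, with a median of -1.86. Gap43, the growth-associated phosphoprotein, went from 762, 683 and 743 to 107, 108 and 156 FPKM. Among the tubulins of growing axons, Tubb2b fell by 1.27 ± 0.088 and Tuba1a fell by 1.08 ± 0.084, and Tuba1a measured 2485, 2154 and 2295 FPKM after OGD. Marcks, a membrane-bound actin regulator of many cell types, did not pass (0.24 ± 0.12), although it did without OGD replicate 1 (adjusted p = 0.0306) or control replicate 3 (adjusted p = 0.0114).

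Neuropeptides and granule proteins fell in 20 of 22 cases, 18 over 2-fold, with a median of -2.60. Vip, the vasoactive intestinal peptide of a class of interneurons, had 2.79, 3.64 and 3.08 FPKM in controls and 0, 0.06 and 0.18 after OGD. Gal, the peptide galanin, was the 1 member to rise, by 0.74 ± 0.21. Cpe, the carboxypeptidase that trims peptide precursors, measured 359.8, 361 and 356 FPKM in controls and 370.0, 342 and 354 after OGD and did not pass (-0.10 ± 0.069). Its 95% interval was -0.25 to 0.048.

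Effector genes that synaptic activity induces fell in 15 of 17 cases, 14 over 2-fold, with a median of -2.13. Rgs4, a brake on G protein signalling, fell by 4.22 ± 0.20, from 67.01, 64.4 and 76.5 to 2.74, 3.63 and 5.5 FPKM, and Nptxr, a receptor of synaptic pentraxins, fell by 3.04 ± 0.14. Egr1, an immediate early gene that glia also induce, and the orphan receptor gene Nr4a1 did not pass (0.24 ± 0.12 and -0.31 ± 0.15). Egr3, of the same family as Egr1, fell by 2.56 ± 0.25.

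Transcription factors of cortical neurons fell in 18 of 23 cases, 16 over 2-fold, with a median of -1.87. Fezf2, which specifies deep-layer projection neurons, fell by 3.0 ± 0.12, from 13.97, 14.1 and 13.2 to 1.62, 1.97 and 1.84 FPKM. Rorb, a layer 4 factor that astrocytes also carry, rose by 1.58 ± 0.085, from 12.5, 11.5 and 11.9 to 40.01, 33.9 and 36.9 FPKM. Pou3f2, a factor of upper-layer neurons and of progenitors, rose by 0.94 ± 0.085. Lhx2, which patterns the telencephalon from the progenitor stage on, did not pass (0.056 ± 0.083). The members that rose or did not pass are known from progenitors or glia too, and the progenitor markers summed to 1053 to 1184 FPKM in controls and 4038 to 4609 after OGD; the part of that shift in these values was not tested.

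Neuronal splicing regulators gave a mixed list. Of 17 genes 12 fell, 11 over 2-fold, and 4 rose, with a median of -1.95. Ptbp1, the repressor of neuronal exons that neurons silence as they differentiate, rose by 1.13 ± 0.079, from 27.99, 29.7 and 25.9 to 65.1, 66.4 and 61.9 FPKM. Ptbp2, which replaces it in neurons, fell by 0.57 ± 0.11. Rest, the repressor of neuronal genes in other cells, rose by 0.74 ± 0.10, and Mbnl2, a splicing factor of many tissues, by 0.87 ± 0.13. Within the NOVA pair, Nova2 fell by 1.95 ± 0.11 and Nova1 did not pass (-0.056 ± 0.10).

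Receptors of the neurotrophins moved in both directions. Ngfr, the low-affinity neurotrophin receptor, fell by 5.04 ± 0.78, and the ligand Bdnf fell by 2.49 ± 0.41. Ntrk2, whose truncated form is abundant in astrocytes, measured 163, 175 and 159.7 FPKM in controls and 276, 286 and 277 after OGD and rose by 0.80 ± 0.079. Counts per gene do not separate its full-length and truncated forms. Cntf, the ciliary neurotrophic factor made by astrocytes, rose by 1.70 ± 0.15. Of the 13 genes of this list 3 rose and 9 fell, with a median of -0.49.

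Axon injury genes were likewise divided. Atf3, a stress factor that injured neurons induce, rose by 2.72 ± 0.23, from 0.67, 0.68 and 0.49 to 3.86, 3.43 and 5.54 FPKM, and Jun by 0.88 ± 0.11. Nmnat2, the enzyme that keeps axons alive by making NAD, fell by 1.95 ± 0.11, and Sarm1, the NAD hydrolase that it holds in check, fell by 0.82 ± 0.11. Nmnat2 went from 52.5, 49.7 and 46.9 to 14.2, 11.6 and 15.2 FPKM and Sarm1 from 28.2, 26.1 and 23.5 to 17.9, 13.6 and 15.3. In all 10 of 13 fell and 2 rose. In each of the neuronal lists above most members fell as the neuron markers did (all 12, median -2.86), and the part of that shift in them was not tested.

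**Figure D3:**
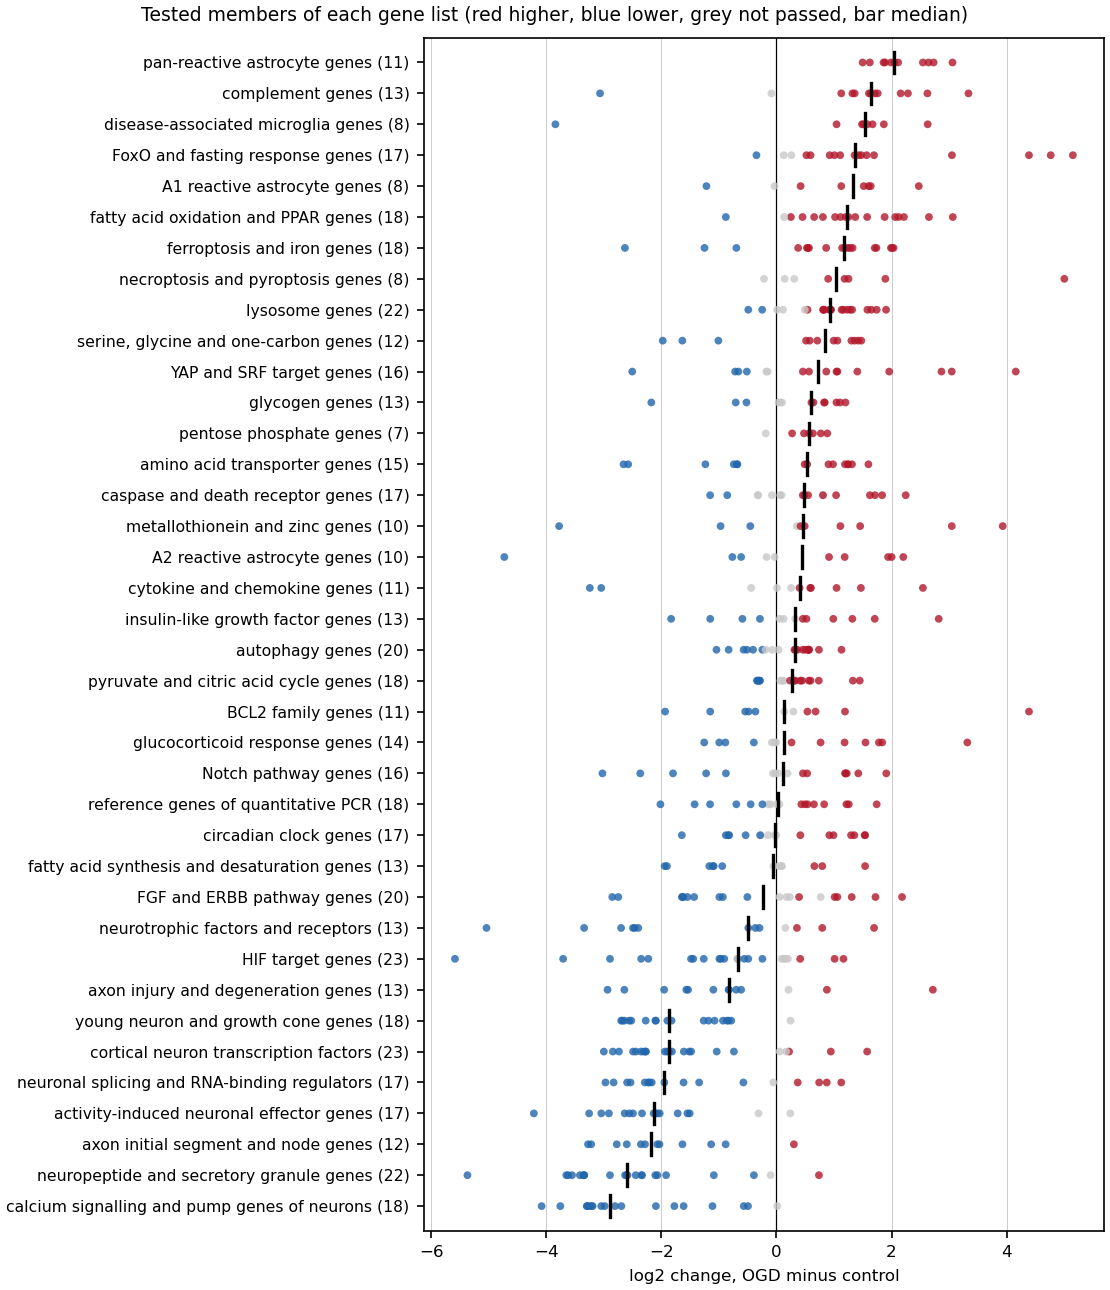
Log2 change, OGD minus control, of the tested members of gene lists other than cell type markers, ordered by their median (black bars); red members rose, blue fell and grey did not pass, and the number tested stands beside each name. Lists at the top hold glial reaction, fasting and iron genes, lists at the bottom hold neuronal genes, and most lists in between hold members of both directions.

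Fasting and FoxO response genes were higher. Of 17 genes 14 rose, 9 over 2-fold, 1 fell and 2 did not pass, with a median of 1.36. Besides Pdk4, Angptl4 and Bmf, which belong to this list, Fbxo32, the ubiquitin ligase atrogin-1 of muscle wasting, went from 1.44, 1.65 and 1.52 to 11.5, 12.7 and 16.3 FPKM. Txnip, which holds back glucose uptake and is itself induced by glucose, measured 62.9, 62.96 and 59.1 FPKM in controls and 212, 209 and 215 after OGD, a rise of 1.70 ± 0.082. Foxo1, the factor itself, rose by 1.36 ± 0.094, and Klf15, a factor of amino acid use in fasting, by 1.57 ± 0.099. All OGD libraries were above all controls for these 4 genes, while the groups did not overlap for 75.1% of all tested genes. Since Fbxo32, Foxo1 and Klf15 were picked with their values known, their separation is no result.

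Fatty acid oxidation genes moved in the same direction. Of 18 genes 16 rose, 10 over 2-fold, with a median of 1.23. Cpt1a, which admits long-chain fatty acids to mitochondria, measured 20.98, 23.1 and 22.4 FPKM in controls and 104, 95.5 and 94.7 after OGD. Acadl, a dehydrogenase of the first oxidation step, rose by 2.12 ± 0.068 and Ucp2, an uncoupling protein of the inner membrane, by 2.65 ± 0.088.

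The isoform of Cpt1 that is found in neurons, Cpt1c, did not pass: it had 22.2, 21.1 and 20.7 FPKM in controls and 28.3, 23.1 and 23.2 after OGD (0.13 ± 0.093, adjusted p = 0.213). Acsl1, which activates long-chain fatty acids, was the 1 member to fall, with a change of -0.88 ± 0.091. Fatty acid oxidation in brain is mainly astrocytic, and the astrocyte markers rose in 11 of 12 cases with a median of 1.20; the part of that shift in this list was not tested.

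Fatty acid synthesis gave both directions. Of 13 genes 3 rose, 6 fell and 4 did not pass, with a median of -0.054 that changed sign over the alternatives (-0.107 to 0.032). Fasn, the synthase, fell by 1.94 ± 0.12, from 172, 167 and 135 to 47.4, 39.9 and 43.6 FPKM, and Scd, a stearoyl-CoA desaturase, fell by 1.90 ± 0.13. Scd2, the desaturase that dominates in brain, measured 1072, 1137 and 1099 FPKM in controls and 1113, 1324 and 1321 after OGD and did not pass (0.097 ± 0.076). Acetyl-CoA carboxylase, the committed step, split by isoform: Acaca, whose product feeds synthesis, fell by 0.94 ± 0.10, and Acacb, whose product restrains Cpt1, rose by 1.54 ± 0.16.

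Serine, glycine and one-carbon genes rose in 9 of 12 cases, with a median of 0.85. The cytosolic serine synthesis genes Phgdh and Psat1 rose by 1.30 ± 0.10 and 1.47 ± 0.094, and Mthfd1, the cytosolic folate enzyme, by 1.36 ± 0.08. Phgdh measured 159, 176 and 163 FPKM in controls and 494, 417 and 393 after OGD. The 3 falls of the list were in mitochondrial folate enzymes: Mthfd2 fell by 1.01 ± 0.19, Mthfd1l fell by 1.98 ± 0.10 and Aldh1l2 fell by 1.64 ± 0.11. Other mitochondrial enzymes of the list rose: Shmt2, which interconverts serine and glycine, by 0.52 ± 0.11, and Gldc, Amt and Gcsh of the glycine cleavage system by 1.42 ± 0.10, 1.06 ± 0.12 and 0.99 ± 0.071.

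Amino acid transporters also divided, with 9 of 15 higher and 6 lower. Slc38a1, a glutamine transporter of neurons, fell by 1.24 ± 0.089, and Slc38a3, a glutamine exporter of astrocytes, rose by 1.6 ± 0.13. Slc38a1 measured 46.97, 49.2 and 44.4 FPKM in controls and 21.5, 20.01 and 22.2 after OGD, and Slc38a3 139, 149 and 120.3 and 512, 425 and 373. Slc7a3, a carrier of arginine and lysine, fell by 2.66 ± 0.086, and Slc6a6, the taurine transporter, fell by 2.58 ± 0.15. Slc3a2, the heavy chain shared by several exchangers, rose by 1.31 ± 0.071. The medians of the neuron and astrocyte markers were -2.86 and 1.20, and their part in these values was not tested.

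Of 13 glycogen genes 7 rose and 3 fell, and the phosphorylases that release glucose from glycogen went opposite ways: Pygl fell by 2.18 ± 0.13 and Pygb rose by 1.10 ± 0.086. Of 7 pentose phosphate genes 6 rose, none over 2-fold, with a median of 0.57. Of 18 pyruvate and citric acid cycle genes 10 rose and 5 fell, with a median of 0.27. Pc, pyruvate carboxylase, an astrocytic enzyme that refills the cycle, rose by 1.33 ± 0.08, and Suclg2, the GTP-forming succinyl-CoA ligase subunit, by 1.45 ± 0.07. Pdha1, the pyruvate dehydrogenase subunit that Pdk4 phosphorylates, fell by 0.34 ± 0.088, and Mpc1, a subunit of the mitochondrial pyruvate carrier, fell by 0.29 ± 0.068.

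**Figure D4:**
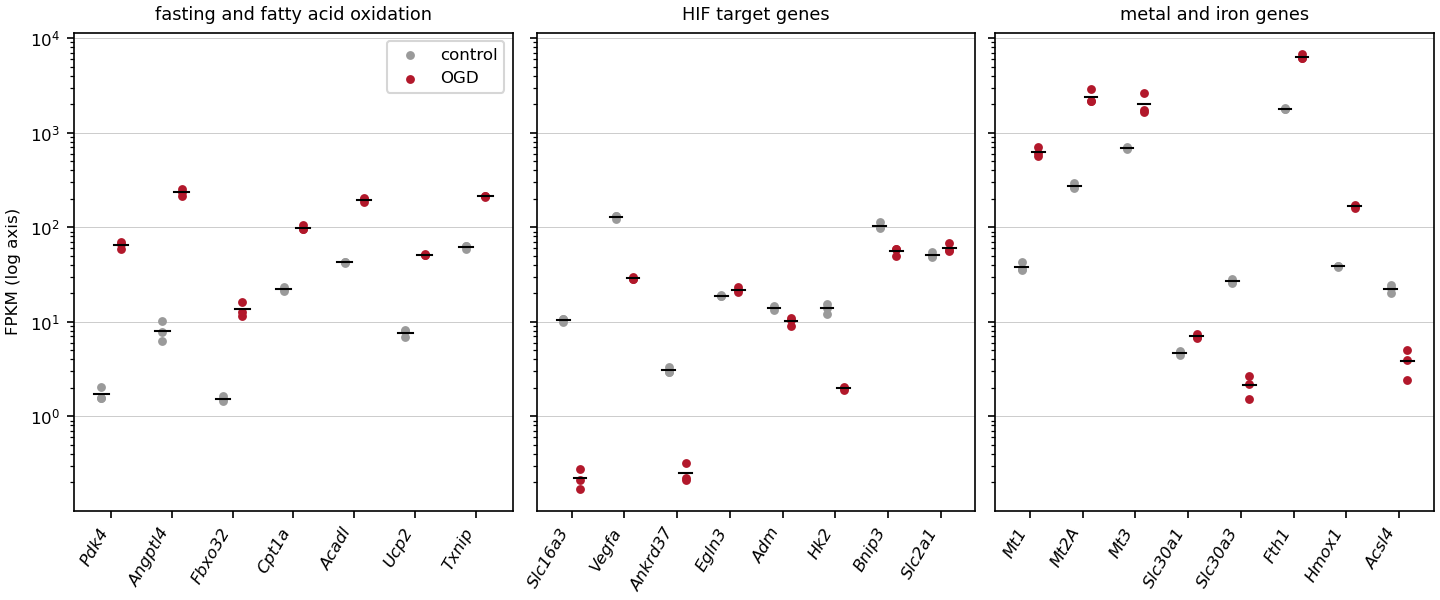
FPKM of single genes in every library on a log axis, for fasting and fatty acid oxidation genes, HIF targets, and metal and iron genes; points are libraries and bars the mean of 3. The genes drawn are part of their lists and were picked with their values known. All 7 fasting and fatty acid oxidation genes drawn are higher after OGD, and members that fell or did not pass, such as Acsl1 and Cpt1c, are not among them. Most of the HIF targets drawn are lower, and Slc30a3 and Acsl4 fall among drawn metal and iron genes that otherwise rise.

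HIF targets as a list were lower after the return to normal oxygen. Of 23 genes 15 fell, 8 over 2-fold, 3 rose and 5 did not pass, with a median of -0.68. Slc16a3, the lactate exporter, dropped from 10.8, 10.8 and 9.98 to 0.17, 0.28 and 0.21 FPKM, a change of -5.59 ± 0.24. Hk2, the inducible hexokinase, fell by 2.89 ± 0.15 and Ldha, which makes lactate, fell by 1.48 ± 0.07. Ankrd37, a small ankyrin-repeat protein gene and classical HIF target, fell by 3.71 ± 0.43 (adjusted p = 4.37e-06), from 2.97, 2.94 and 3.3 to 0.32, 0.21 and 0.22 FPKM. Vegfa, the angiogenic growth factor, kept a level of 28.6, 28.5 and 29.5 FPKM against 130.1, 121 and 131 in controls.

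Among genes of the list that did not fall, Pfkfb3, an activator of glycolysis, rose by 1.17 ± 0.074, and Eno1, Aldoa and Slc2a1 did not pass (0.20 ± 0.085, 0.091 ± 0.10 and 0.16 ± 0.11). Eno1 had an adjusted p of 0.0501 and passed with library totals (adjusted p = 0.00515), without robust shrinkage (adjusted p = 0.0486) and without OGD replicate 2 (adjusted p = 0.0417) or 3 (adjusted p = 0.0288). Egln3, an oxygen sensor that HIF itself induces, had 18.5, 18.7 and 19.1 FPKM in controls and 21.6, 23.1 and 20.5 after OGD and did not pass either (0.13 ± 0.082), and Bnip3, a mitophagy receptor, fell by 0.99 ± 0.086. Ankrd37, Egln3 and Bnip3 here, and Fbxo32, Foxo1 and Klf15 above, were picked after their values were seen.

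The promoter of Ankrd37 is shown because it carries the core of the HIF response element 3 times, while the gene was among the lowest of the list after OGD. The 250 bases before the annotated start lie at chr16:53001257-53001506 on the plus strand of the rat assembly GRCr8 and come from RefSeq. Capitals mark ACGTG or its reverse complement CACGT.
Ankrd37: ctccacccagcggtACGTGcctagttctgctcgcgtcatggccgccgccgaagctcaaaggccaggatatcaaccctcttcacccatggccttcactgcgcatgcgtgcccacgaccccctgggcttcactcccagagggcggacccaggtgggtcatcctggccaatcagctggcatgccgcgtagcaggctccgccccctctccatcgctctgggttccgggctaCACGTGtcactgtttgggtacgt
The matches lie 236 to 232, 23 to 19 and 22 to 18 bases before the start, and the last 2 overlap in the palindrome CACGTG. The motif was searched on both strands as ACGTG. It occurs in 8 of the 21 HIF list promoters that could be matched to RefSeq (38.1%), and in 16.9% of all 27457 promoters of this length. The latter include genes that were not tested here, so these shares are not of like sets. A match of these letters is a description of the sequence, not a bound site, and a promoter without one says only that the letters are not in this window.

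Metallothioneins, cysteine-rich proteins that bind zinc and copper and are induced by free zinc, rose. Mt2A measured 258, 269 and 295 FPKM in controls and 2881, 2187 and 2142 after OGD, a rise of 3.05 ± 0.12. Mt1 went from 35.7, 35.9 and 43.0 to 701, 561 and 603 FPKM (3.93 ± 0.12), and Mt3, the brain form, from 694, 699 and 674 to 2619.8, 1722 and 1661 FPKM (1.46 ± 0.16). Within the OGD group replicate 1 was the highest for all 3, and every OGD library lay above every control for each gene. For Mt1 that separation was required by its selection among the largest rises, so it is no result. Of all tested genes, 75.1% had control and OGD groups that do not overlap. Mt1, the lowest of the 3 in control FPKM, had the largest log2 change, and Mt3, the highest in controls, the smallest.

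Their promoters are shown because all 3 carry several matches to the metal response element, the motif of the zinc sensor MTF1. Each is the 250 bases before the annotated start, on the minus strand of chromosome 19 of GRCr8, from RefSeq: Mt1 at chr19:10832976-10833225, Mt2A at chr19:10838709-10838958 and Mt3 at chr19:10856081-10856330. Capitals mark TGCACNC or TGCGCNC on either strand.
Mt1: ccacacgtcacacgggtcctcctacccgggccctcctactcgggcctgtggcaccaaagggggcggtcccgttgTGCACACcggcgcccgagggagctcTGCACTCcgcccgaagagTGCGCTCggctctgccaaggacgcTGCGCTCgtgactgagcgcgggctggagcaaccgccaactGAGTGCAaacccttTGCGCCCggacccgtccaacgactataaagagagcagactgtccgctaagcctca
Mt2A: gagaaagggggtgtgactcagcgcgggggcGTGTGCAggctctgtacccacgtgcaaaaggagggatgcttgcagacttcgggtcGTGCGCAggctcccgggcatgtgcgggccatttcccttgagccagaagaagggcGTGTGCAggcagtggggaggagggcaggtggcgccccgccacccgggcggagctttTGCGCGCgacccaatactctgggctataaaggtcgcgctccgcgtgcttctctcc
Mt3: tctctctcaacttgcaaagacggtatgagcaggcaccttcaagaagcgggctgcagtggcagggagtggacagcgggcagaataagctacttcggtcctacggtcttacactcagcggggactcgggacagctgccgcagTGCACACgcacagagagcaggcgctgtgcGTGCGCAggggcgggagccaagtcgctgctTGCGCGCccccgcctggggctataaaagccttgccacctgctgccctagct
Mt1 holds 6 matches, Mt2A 4 and Mt3 3, and none overlaps another match or an ACGTG. The motif occurs in 5 of the 8 promoters of the metallothionein and zinc list that could be matched (62.5%) and in 21.2% of all 27457 promoters. Here too the latter include genes that were not tested, so these shares are not of like sets. Mt3, with the fewest matches of the 3, had the smallest rise, and 3 genes allow no statement on such an order.

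The zinc transporters of the same list did not share 1 direction. Of its 10 tested members 6 rose and 3 fell, with a median of 0.46. Slc30a1, the zinc exporter of the plasma membrane, rose by 0.49 ± 0.098. Slc30a3, which loads zinc into synaptic vesicles, fell by 3.78 ± 0.19, from 28.5, 25.9 and 26.6 to 2.18, 1.54 and 2.66 FPKM, and Slc39a10, a zinc importer, fell by 0.97 ± 0.074. Mt1, Mt2A and Mt3 are also expressed highly by astrocytes, whose markers rose (sum 3088 to 3250 FPKM in controls, 7995 to 8606 after OGD); the part of that shift was not tested.

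Iron and ferroptosis genes were higher in 15 of 18 cases, 9 over 2-fold, with a median of 1.17. Ferroptosis is cell death by iron-dependent lipid peroxidation. Fth1, the ferritin heavy chain that stores iron, measured 1789, 1819 and 1795 FPKM in controls and 6717, 6153 and 6237 after OGD, a rise of 1.74 ± 0.078. Hmox1, which releases iron from heme, rose by 2.04 ± 0.068, and Gclc, which limits glutathione synthesis, by 1.19 ± 0.075. The 3 falls were Acsl4, which makes membranes sensitive to peroxidation (-2.63 ± 0.21, from 20.04, 22.6 and 24.6 to 2.42, 3.96 and 5.08 FPKM), the iron importer gene Tfrc, which fell by 0.70 ± 0.11, and Chac1, which degrades glutathione and fell by 1.25 ± 0.26.

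Lysosomal genes rose in 17 of 22 cases, 8 over 2-fold, with a median of 0.94. Grn, the lysosomal and secreted progranulin, rose by 1.65 ± 0.082, from 33.9, 31.7 and 32.6 to 120.2, 101 and 106 FPKM. Ctsl, a cathepsin, rose by 1.28 ± 0.067 and the membrane protein gene Lamp2 by 1.23 ± 0.065, while Atp6v1h, a subunit of the proton pump, fell by 0.49 ± 0.10. Of 20 autophagy genes 11 rose and 6 fell, none over 2-fold in either direction, with a median of 0.32. Wipi1, which binds the forming autophagosome, rose by 1.13 ± 0.075 and was called over 2-fold with library totals (adjusted p = 0.00721) and without control replicate 3 (adjusted p = 0.0344). Atg16l1, which directs LC3 to that membrane, fell by 1.04 ± 0.084. Sqstm1, the cargo receptor p62, rose by 0.57 ± 0.064. Lysosomal genes are rich in microglia and astrocytes, whose marker medians were 2.22 and 1.20, and the part of those shifts here was not tested.

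Death genes did not move as a block. Of 11 BCL2 family genes 4 rose and 5 fell, with a median of 0.14. After Bmf, the next rise was Bak1, a pore-forming member, by 1.19 ± 0.083. Bok, a related pore-former, fell by 1.15 ± 0.094, and Pmaip1, the BH3-only protein Noxa, fell by 1.94 ± 0.38.

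Among 17 caspase and death receptor genes 9 rose, 2 fell and 6 did not pass. The receptors Tnfrsf1a and Fas rose by 1.62 ± 0.093 and 1.71 ± 0.098, and Casp6, an executioner caspase that acts in axon degeneration, by 2.25 ± 0.16. Tnfrsf1a went from 30.3, 30.8 and 26.7 to 104, 92.1 and 90.9 FPKM. Apaf1, the scaffold of the apoptosome, fell by 1.15 ± 0.10. Casp9, the initiator caspase, did not pass (-0.079 ± 0.11). Transcript levels do not measure caspase activity.

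Necroptosis and pyroptosis genes rose in 5 of 8 cases and fell in none. Gsdmd, the pore former of pyroptosis, rose by 1.89 ± 0.11. Pycard, the adaptor of inflammasomes, was near the limit of detection in controls (0.05, 0 and 0 FPKM) and measured 0.53, 0.58 and 1.44 after OGD. Gadd45a and Plk2 are not of this list but of p53 targets, whose counts are not reported here. Gadd45a, a stress-induced regulator of DNA repair, rose by 2.30 ± 0.15. Plk2, a kinase that neurons also induce with activity, fell by 2.42 ± 0.20, from 66.99, 67.6 and 68.8 to 10.3, 11.7 and 18.6 FPKM.

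Genes of reactive astrocytes were higher. All 11 tested pan-reactive genes, a list that mouse models of stroke and inflammation share, rose over 2-fold, with a median of 2.05, which is the highest median of the lists in the plot of list members. The over 2-fold call of Cxcl10, a chemokine, was lost by DESeq2 (adjusted p = 0.1) and without OGD replicate 3 (adjusted p = 0.0968), control replicate 2 (adjusted p = 0.0789) or control replicate 3 (adjusted p = 0.109). Hspb1, a small heat shock protein, rose by 3.06 ± 0.14, and Timp1, an inhibitor of matrix proteases, by 2.64 ± 0.13. Timp1 measured 7.4, 8.66 and 10.5 FPKM in controls and 63.2, 60.1 and 53.4 after OGD. Lcn2, a secreted iron-binding lipocalin, rose by 1.86 ± 0.20, from 3.25, 2.31 and 3.86 to 13.5, 9.5 and 14.2 FPKM. The median rise of these genes stood beside 1.20 for the astrocyte markers, and the difference was not tested.

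The lists proposed for reactive astrocytes after inflammation (A1) and after ischaemia (A2) were both divided. Of 8 A1 genes 6 rose and 1 fell, with a median of 1.32. Of 10 A2 genes 5 rose and 3 fell, with a median of 0.44 that ranged from -0.011 to 0.63 over the alternatives. Cd14, a co-receptor of innate immunity, rose by 2.00 ± 0.23. Ptgs2, the inducible cyclooxygenase, which cortical neurons also express, fell by 4.73 ± 0.47, from 0.48, 0.62 and 0.65 to 0, 0.03 and 0.03 FPKM.

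Complement genes rose in 11 of 13 cases, 8 over 2-fold, with a median of 1.64. Clu, the secreted inhibitor clusterin, rose by 1.36 ± 0.066, from 368, 373 and 384 to 1011, 1025 and 1031 FPKM. Cd55, a membrane inhibitor of complement, was the 1 gene to fall, with a change of -3.07 ± 0.53. Genes of disease-associated microglia rose in 7 of 8 cases; Cd9, a tetraspanin of many glia, rose by 1.87 ± 0.082, and Lpl, lipoprotein lipase, which Angptl4 inhibits, fell by 3.84 ± 0.22, from 7.25, 6.95 and 8.18 to 0.38, 0.44 and 0.85 FPKM. Members of these lists that define microglia stood under 10 FPKM in every library, and several of the others are expressed by astrocytes and oligodendrocyte precursors.

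Of 23 listed cytokine genes 11 had enough reads to be tested, and 6 of these rose. The neuronal ligands of microglial receptors were lower: Cx3cl1, the ligand of Cx3cr1, fell by 3.05 ± 0.12, from 58.5, 53.5 and 55.1 to 6.67, 6.26 and 8.63 FPKM, and Il34, a ligand of Csf1r, fell by 3.24 ± 0.26. Csf1, the other ligand of Csf1r, rose by 1.04 ± 0.13, from 5.0, 5.16 and 5.07 to 9.98, 12.8 and 10.6 FPKM, and Cxcl14, a chemokine, by 1.47 ± 0.10. The 2 ligands of Csf1r therefore moved in opposite directions.

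Notch pathway genes moved in both directions. Dner, a neuronal ligand, fell by 2.37 ± 0.092, and the Jagged ligand gene Jag2 fell by 3.02 ± 0.17. Dner went from 88.7, 84.8 and 80.7 to 16.6, 15.9 and 19.8 FPKM. The receptors Notch1 and Notch2 rose by 1.19 ± 0.14 and 1.22 ± 0.12. Among target genes Hey1 rose by 1.91 ± 0.13, Hes5 fell by 1.80 ± 0.20, and Hes1 did not pass (0.19 ± 0.13). The list of 16 held 7 rises and 5 falls, with a median of 0.11.

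Targets of YAP and of serum response factor, many of them cytoskeletal genes, rose in 10 of 16 cases, 5 over 2-fold, with a median of 0.72. Myl9, a myosin light chain of smooth muscle, rose by 3.05 ± 0.13 and Flna, an actin cross-linker, by 1.06 ± 0.11, while the tropomyosin gene Tpm1 fell by 0.66 ± 0.068. Acta2, smooth muscle actin, rose from 0.18, 0 and 0.14 to 3.17, 1.81 and 2.01 FPKM. Among insulin-like growth factor genes Igf2 rose by 2.82 ± 0.29 and Igfbp5 by 1.71 ± 0.095, and Igfbp3 fell by 1.83 ± 0.22. In the FGF and ERBB pathways 6 of 20 genes rose and 10 fell: Fgf13, an intracellular member that tunes sodium channels, fell by 2.75 ± 0.14, the feedback inhibitor Spry4 fell by 1.63 ± 0.13, and the receptor genes Fgfr1 and Fgfr2 rose by 1.06 ± 0.10 and 1.31 ± 0.068.

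Glucocorticoid-responsive genes and clock genes did not share a direction. Of 14 glucocorticoid response genes 7 rose and 4 fell. Klf9 and Fam107a rose by 1.55 ± 0.10 and 1.84 ± 0.12, Tsc22d3, a mediator of glucocorticoid action, fell by 1.25 ± 0.12, and Fkbp5, a feedback chaperone of the receptor, did not pass (-0.033 ± 0.091). Of 17 clock genes 7 rose and 6 fell, with a median that changed sign over the alternatives (-0.127 to 0.056). The output genes Dbp and Nr1d1 rose by 1.53 ± 0.075 and 1.35 ± 0.091, Ciart, a repressor in the same loop, fell by 1.65 ± 0.14, and Per1 did not pass (-0.0052 ± 0.084). The labels do not give the time of day at which the cultures were taken.

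Genes often used as references in quantitative PCR changed in both directions, as did tested genes in general (36.3% higher, 36.8% lower). Of 18 such genes 8 rose, 6 fell and 4 did not pass, with a median of 0.032 that changed sign over the alternatives (-0.053 to 0.117). Hprt1, of purine salvage, fell by 2.02 ± 0.18, from 23.9, 22.9 and 28.99 to 4.65, 8.29 and 6.68 FPKM. Tubb5 fell by 1.42 ± 0.092, Ywhaz fell by 1.15 ± 0.11 and Actb fell by 0.45 ± 0.087. Gusb, a lysosomal enzyme, rose by 1.74 ± 0.12, and B2m, the light chain of class I molecules, by 1.26 ± 0.067. The 18 genes thus ran from -2.02 for Hprt1 to 1.74 for Gusb. For all tested genes the 5th percentile was -2.66 and the 95th percentile 1.63.

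Gapdh measured 1529.5, 1444 and 1305 FPKM in controls and 1765, 1387 and 1420.0 after OGD, with a change of 0.011 ± 0.10 (adjusted p = 0.93; 95% interval -0.21 to 0.24). Ppia, Tbp and Eef1a1 did not pass either, with intervals of -0.25 to 0.044, -0.39 to 0.095 and -0.12 to 0.23. Among all genes of at least 50 FPKM, those with estimates closest to 0 included Kpnb1, a nuclear import receptor (64.8, 68.1 and 66.6 FPKM in controls, 66.9, 76.05 and 70.01 after OGD), Sf1, a splicing factor (49.6, 49.5 and 48.3 and 50.8, 51.4 and 51.5), and Ndufs4, a subunit of respiratory complex I (53.97, 59.6 and 60.1 and 62.9, 62.1 and 60.5). Their 95% intervals were -0.14 to 0.16, -0.16 to 0.11 and -0.14 to 0.16. These 3 were named because their estimates are small, and the intervals say how large a change could have been missed.

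**Figure D5:**
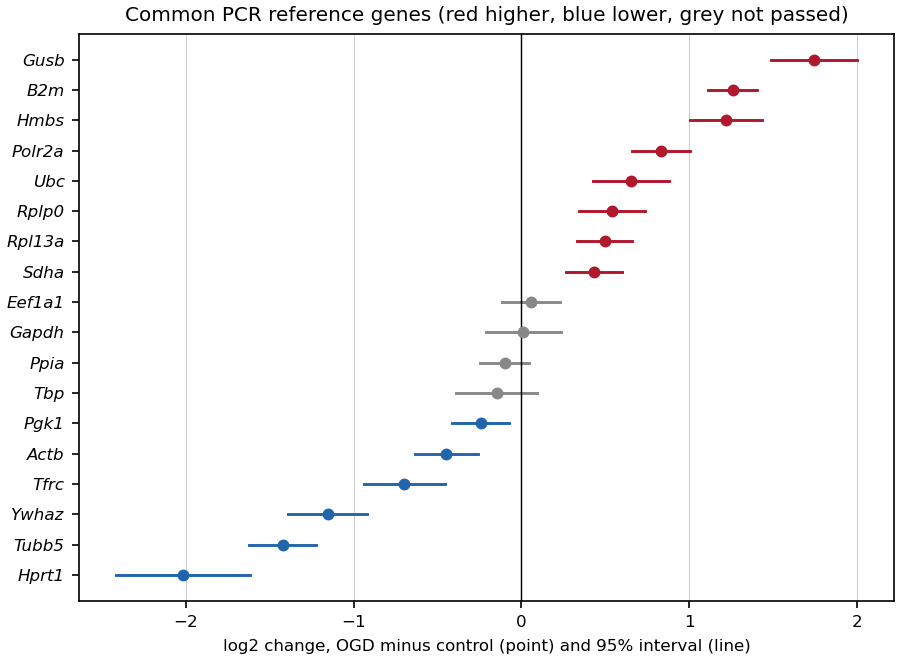
Log2 change, OGD minus control, of 18 genes often used as references in quantitative PCR, with 95% intervals; red genes rose, blue fell and grey did not pass. Eef1a1, Gapdh, Ppia and Tbp have intervals that include 0, and the genes range from -2.02 (Hprt1) to 1.74 (Gusb).

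Beside mitochondrial transcripts, the abundant genes after OGD included those of glia and iron storage. Fth1 stood among the 10 most abundant genes, and so did Apoe, the lipid carrier of astrocytes, at 7900.0, 6240.4 and 6594 FPKM against 2298, 2323 and 2253 in controls (1.51 ± 0.097). Ckb, brain creatine kinase, which buffers ATP, rose by 1.46 ± 0.11, from 1727, 1729.8 and 1576 to 5747, 4501 and 4403 FPKM.

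The series asks about Wnt signalling, and 3 of its genes were measured here without added ligand. Axin2, the general target and feedback inhibitor of the pathway, had 2.48, 2.06 and 2.16 FPKM in controls and 2.51, 2.24 and 2.02 after OGD (-0.074 ± 0.13, adjusted p = 0.614). Ctnnb1, which encodes beta-catenin, rose by 0.39 ± 0.08 (adjusted p = 0.000729). Rspo1, the endogenous R-spondin, had 33, 20 and 35 reads in the control libraries and none in the 3 OGD libraries, where up to 3 reads per library could have been missed. Wnt3a had too few reads to be tested.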

How the data were processed

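RNA of rat cortical neurons was sequenced from 9 TruSeq libraries, 3 per group, per the labels' protocols. The authors deposited whole-number counts per gene, not normalized, and FPKM, which are scaled by gene length and library total, per the file headers and the column totals. Bowtie 0.12.2 is listed in the submitters' processing notes, with mm8 and mm9, which are mouse builds, for samples from rat; aligner settings, rat build, annotation and use of strand are not given in the sources used here. Reads of overlapping or antisense genes, and of near-identical copies such as tubulins, ferritins, actins and metallothioneins, may therefore be split or shared.

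Of 22050 genes, 17332 had a read and 13693 passed edgeR's filterByExpr (at least 10 counts in 3 libraries and 15 in total). Counts were fitted in edgeR 4.0.16 (R 4.3.3) with TMM scaling and a robust quasi-likelihood model over all 9 libraries (6 residual degrees of freedom, biological coefficient of variation 10.3%). Control and OGD were compared with Benjamini-Hochberg adjustment at 0.05, and over 2-fold with glmTreat. The authors' deposited fold changes and p-values were not used. The prior count of log2 changes was 0.125, and FPKM carry no TMM factor and for some genes, such as Gad1, are not in strict proportion to the counts, so FPKM ratios can differ from the log2 changes, also in sign where these are small. A gene at 0 reads allows 3 counts per library (0.12 to 0.21 CPM), for counting error only.

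Members and the 51 gene lists were chosen with earlier results of these data known. Named are the 12 largest rises and falls of at least 5 FPKM with separate groups, the 10 most abundant genes, per list the most significant and the most abundant exceptions, and genes of at least 50 FPKM nearest to no change. Outside this rule, and chosen after their values were seen, are Ankrd37, Apaf1, Bcas1, Bnip3, Camk2b, Egln3, Egr3, Fbxo32, Foxo1, Hes1, Hprt1, Klf15, Notch1, Notch2, Ptbp2, Rest, Sqstm1, Tbp and Ywhaz. List symbols that matched no gene, such as Neurod2, were not analysed here, and some list members are not reported here. RefSeq promoters (GRCr8) matched 10656 of the tested genes (77.8%), too few for motif shares over all of them. Alternatives were DESeq2 1.42.0, scaling by library totals, other filters, a replicate block, a control and OGD fit alone and leaving out each library. On data simulated for 13581 genes, 93.8% of genes changed by 2-fold were recovered as passing, and 2.08% were called over 2-fold. Of genes set to a log2 change of 2, 96% were called over 2-fold. The simulation changed 50 genes at each size and gave all genes the same spread. In the real data 73.1% of genes passed, so these rates may not hold there.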

Additional observations from a re-analysis of the deposited data

How the results depend on the processing

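Under the 13 alternatives the only named genes with a changed direction and a call in either fit were the 3 haemoglobin identifiers, none of which passed in the reported fit. Leaving out 1 library each gave log2 changes from -1.51 to 6.18 for Hbb, and from -1.62 to 5.53 and -1.075 to 4.29 for the 2 identifiers of Hba-a2, each highest without control replicate 2, the library with most of the haemoglobin reads among controls. Every count of called genes stayed within 1.5 times its reported value. Genes called ranged from 9438 to 10301 and genes over 2-fold from 2632 (DESeq2) to 3375; leaving out each library in turn gave 9438 to 10224 called and 3105 to 3350 over 2-fold. Of the genes over 2-fold, 2605 stayed so under every alternative (828 higher, 1777 lower). Library totals in place of TMM moved the median of all genes to 0.105 and the higher share of calls from 49.7% to 54.6%. With a replicate block 10301 genes were called and 3375 over 2-fold. The deviations of same-numbered control and OGD libraries correlated at 0.273, -0.055 and 0.105 for numbers 1 to 3. With 3 libraries per group these values cannot decide whether libraries were paired by number, and the labels do not say. With the block Eno1 (adjusted p = 0.0258) and Slc2a1 (adjusted p = 0.0394) passed, and Wipi1 was called over 2-fold (adjusted p = 0.0454). Of 471 named genes 16 lost and 30 others gained a call in the same direction under some alternative. The medians of 6 lists changed sign under some alternative: mural, erythroid, fatty acid synthesis, A2, clock and reference genes. With 50 bases after the start added, the share of promoters with a motif was 25% for the metal element, 19.7% for ACGTG, and, for 2 motifs not used above, 3.76% (FoxO) and 1.91% (cyclic AMP element); the cause was the longer window. Depth limits genes under about 10 reads, and the simulated-data check recovered 60% of genes set to 0.5 in log2.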

Other observations

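Haemoglobin transcripts appeared mainly in 1 control library. Hbb, the beta-globin gene, had 0, 4.17 and 0 FPKM in control replicates 1 to 3 and 0.42, 0.68 and 1.06 FPKM after OGD, and the matched erythroid markers summed to 15.5 FPKM in control replicate 2 against at most 0.14 in the other controls. None of the 3 tested erythroid markers passed (Hbb -0.81 ± 1.42, adjusted p = 0.625 by edgeR's quasi-likelihood test), and all 3 passed as higher after OGD without control replicate 2. Their part in other results was not tested.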
